A study of Mus musculus with 8 samples.

Results

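Expression was compared directly between mouse embryonic stem cells that carried the hairpin shDnmt3L1 and cells that carried the hairpin shDnmt3L2, both directed against Dnmt3l. The comparison takes the 4 arrays labelled with these hairpins, 2 for each, out of 8 arrays in the series. All 8 arrays hold total RNA of E14 cells, a mouse embryonic stem cell line, grown in serum with leukaemia inhibitory factor (LIF), transfected with a short hairpin RNA and kept in puromycin for 3 days. The other groups are shGFP, a control hairpin against GFP, and shDnmt3L3, another hairpin against Dnmt3l, with 2 arrays each. No group is untransfected, so the hairpin and the selection are shared by all of them. The labels do not say whether the 2 arrays of a group came from separate cultures, and p-values then measure only the spread between these arrays, which may be technical. The sources used here do not give the sequences of the hairpins.

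DNMT3L has no methyltransferase activity of its own and works as a partner of DNMT3A and DNMT3B, which place new DNA methylation in germ cells and early embryos. A hairpin RNA is processed into a small interfering RNA that lowers its target, and it can also lower other transcripts that match its seed, so studies use several hairpins for a target. Mouse stem cells in serum depend on LIF, which signals through its receptor and gp130 to the transcription factor STAT3. STAT3 switches on Socs3, an inhibitor that feeds back on the receptor, and factors such as Klf4, Tfcp2l1 and Gbx2 that keep the naive pluripotent state. A separate pathway, the integrated stress response, raises the transcription factor ATF4 when amino acids or other supplies run low, and ATF4 switches on amino acid transporters, biosynthetic enzymes and aminoacyl-tRNA synthetases.

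Signal levels were alike across the series. The median signal per array ran from 96.1 to 104, and 18111 to 19241 probes per array were detected above the negative controls. All values below are normalized log2 intensities, each difference is shDnmt3L1 minus shDnmt3L2 on the log2 scale, errors are SE from a limma model over all 8 arrays, and a gene was called at a Benjamini-Hochberg adjusted p under 0.05. Of 10930 genes, 880 (8.05%) were called, 523 higher (4.78%) and 357 lower (3.27%) with shDnmt3L1. At a difference of at least 1.5-fold, 171 genes were called (1.56%), of which 94 were higher (0.86%) and 77 lower (0.704%). Against shGFP, which both comparisons share, 5231 genes (47.9%) were called with shDnmt3L1 and 4280 (39.2%) with shDnmt3L2. The median absolute difference over all genes was 0.13 between the 2 hairpins, 0.26 between shDnmt3L1 and shGFP, and 0.22 between shDnmt3L2 and shGFP. Duplicate arrays differed by a median of 0.09 with shDnmt3L1 and 0.10 with shDnmt3L2. The called differences had a median size of 0.45, and the smallest was 0.28.

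The number of calls rested on having both arrays of each hairpin. It was 149 without shDnmt3L1 replicate 1, 143 without shDnmt3L1 replicate 2, 192 without shDnmt3L2 replicate 1 and 194 without shDnmt3L2 replicate 2. In these fits the remaining array of the hairpin is assumed to vary like the other groups. A call that remained under each of the 4 omissions is named as held below, and 91 of the 880 calls held.

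**Figure D1:**
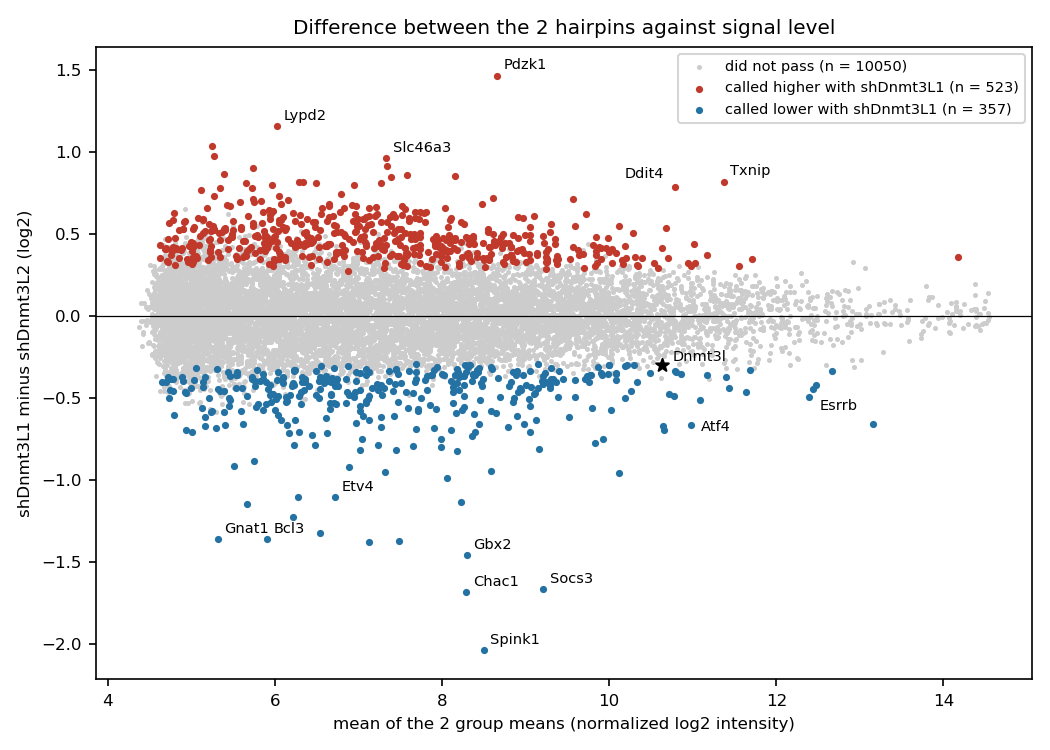
Each point is a gene, with the mean normalized log2 intensity of both hairpin groups on the x axis and the log2 difference shDnmt3L1 minus shDnmt3L2 on the y axis. Red and blue points are the 523 genes called higher and the 357 called lower with shDnmt3L1, and the star marks Dnmt3l at -0.30, among genes of similar difference that were not called.

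Dnmt3l, the target, was reduced by both hairpins. Its level was 10.51 and 10.45 with shDnmt3L1, 10.73 and 10.84 with shDnmt3L2, 11.87 and 11.97 with shGFP, and 9.34 and 9.19 with shDnmt3L3. Both shDnmt3L1 arrays were below both shDnmt3L2 arrays, and all 4 lay between shDnmt3L3 and shGFP. The difference of -0.30 ± 0.087 was not called (limma, adjusted p = 0.0667), although its own 95% interval ran from -0.50 to -0.10. A second Dnmt3l probe gave 10.50 and 10.43 with shDnmt3L1 against 10.68 and 10.52 with shDnmt3L2, a difference of -0.13 with an interval from -0.33 to 0.07. Remaining Dnmt3l was 36.8% and 45.4% of shGFP with shDnmt3L1 and shDnmt3L2 by the first probe, and 38.1% and 41.7% by the second. The knockdown was therefore close but not shown to be equal, and the Dnmt3l difference was called under 4 of the alternative settings given in the closing section.

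The Rhox homeobox genes form an X-linked cluster that DNA methylation keeps low in many tissues, and none of them was called between these 2 hairpins. Rhox5 read 8.58 and 8.53 with shDnmt3L1 and 8.54 and 8.49 with shDnmt3L2, against 11.30 and 11.37 with shGFP. Rhox9 read 6.81 and 6.96 against 7.09 and 6.94, and Rhox6 read 4.82 and 4.54 against 5.03 and 4.57, where it was detected on 1 of 2 arrays of each hairpin. The groups overlapped for Rhox5, Rhox6 and Rhox9. Of the 5 Rhox genes measured, 0 were called with limma and 2 had an unadjusted p under 0.05, Rhox10 at -0.29 ± 0.09 and Rhox13 at 0.35 ± 0.10.

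The cells of both groups carried the markers of embryonic stem cells. Pou5f1, which encodes OCT4, read 11.62 and 11.69 with shDnmt3L1 and 11.81 and 11.64 with shDnmt3L2, and these groups overlapped. Sox2, its partner, read 8.63 and 8.77 against 8.46 and 8.34, and Nanog, another core factor, read 11.97 and 11.89 with shDnmt3L1. None of the 3 was called, with differences of -0.07 ± 0.08 for Pou5f1, -0.07 ± 0.07 for Nanog and 0.30 ± 0.09 for Sox2. As RNA was taken from whole cultures, fewer cells of a type and less RNA per cell cannot be told apart in any result here.

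The LIF and STAT3 targets held the largest share of calls among the signalling lists. Of 19 measured members, 10 were lower and 2 higher with shDnmt3L1 (63.2%, against 8.05% of all genes), and the median difference was -0.40 against 0.0035 over all genes. Across the 18 alternatives of the closing section this list median ran from -0.43 to -0.20. Socs3, the STAT3-induced inhibitor of the LIF receptor complex, read 8.40 and 8.37 with shDnmt3L1, 10.07 and 10.02 with shDnmt3L2, 9.78 and 9.73 with shGFP and 10.72 and 10.70 with shDnmt3L3. The shDnmt3L1 arrays were the lowest of the series and the other 2 hairpins were above the control. The Socs3 difference was -1.66 ± 0.07 (limma, adjusted p = 2.49e-05). Against shGFP, the Socs3 difference was -1.37 with shDnmt3L1 and 0.30 with shDnmt3L2, and both comparisons share the control arrays.

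The promoter of Socs3 is shown because Socs3 was the most different member of the LIF list and its promoter holds a STAT-type palindrome. The sequence is the 250 bases before the annotated start in RefSeq's GRCm38.p6 annotation, chr11:117969367-117969616 on the minus strand, written 5′ to 3′. Capitals mark a match to TTCNNNGAA, which begins 154 bases before the start.

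Socs3: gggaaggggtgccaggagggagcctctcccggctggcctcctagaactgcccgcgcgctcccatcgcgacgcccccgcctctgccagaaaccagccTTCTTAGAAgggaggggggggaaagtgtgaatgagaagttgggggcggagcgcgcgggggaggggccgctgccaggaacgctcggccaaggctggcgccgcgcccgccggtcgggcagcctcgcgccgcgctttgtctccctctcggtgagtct

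The motif TTCNNNGAA reads the same on both strands and was looked for in windows of 300 bases, from 250 before to 50 after each start, which were found for 18 of the 19 LIF genes, 20 of the 22 stress genes and 11 of the 18 tRNA synthetases described below. It occurred in 6.85% of 11272 windows of tested genes and in 3 of 21 windows of the LIF list, those of Socs3, Cish and Zfp36. Among these, Cish (-0.31 ± 0.09) and Zfp36 (-0.13 ± 0.09) were not called. A match describes the letters of the window and is not evidence of binding.

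Mras, a GTPase of the RAS family, gave the cleanest separation of the list after Socs3. It read 6.44 and 6.44 with shDnmt3L1, 7.81 and 7.82 with shDnmt3L2, 7.79 and 7.78 with shGFP and 7.89 and 7.91 with shDnmt3L3. The shDnmt3L1 arrays stood apart and the other 6 arrays lay close together. The difference was -1.38 ± 0.07, and another Mras probe gave -1.31 ± 0.09. Bcl3, a nuclear cofactor of NF-kB proteins and a STAT3 target in stem cells, read 5.14 and 5.32 with shDnmt3L1, 6.72 and 6.46 with shDnmt3L2, and the shGFP arrays read 6.63 and 6.45. Its difference was -1.36 ± 0.11, and again only the shDnmt3L1 arrays were low, since shDnmt3L3 read 6.81 and 6.71. Junb, a subunit of the transcription factor AP-1, read 6.48 and 6.38 with shDnmt3L1 against 7.25 and 7.46 with shDnmt3L2, a difference of -0.92 ± 0.10. Stat3 itself differed by -0.42 ± 0.10, and Lifr, the LIF receptor, was not detected with shDnmt3L1 and was at least 1.23-fold lower than with shDnmt3L2. Ier3 (0.41 ± 0.08) and Ptprs, a receptor tyrosine phosphatase (0.35 ± 0.07), were the members called higher. The other 7 members were not called, among them the kinase gene Pim3 (-0.16 ± 0.09), Fos (-0.10 ± 0.11), Jund (0.19 ± 0.13) and Il6st, which encodes gp130 (-0.02 ± 0.14), and Pim1, which was not detected with shDnmt3L1. Calls in the list numbered 7, 8, 8 and 7 without shDnmt3L1 replicate 1, shDnmt3L1 replicate 2, shDnmt3L2 replicate 1 and shDnmt3L2 replicate 2. The calls that held were Socs3, Gbx2, Mras, Bcl3, Tbx3, Junb and Tfcp2l1.

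Among pluripotency factors, several of the naive state were lower with shDnmt3L1 and the core factors above were not called. Of 28 measured members, 8 were lower and 0 higher (28.6%), with a median of -0.16, and 4 of the 8 (Gbx2, Tbx3, Klf4 and Tfcp2l1) are also on the LIF list. Gbx2, a homeobox gene, read 7.75 and 7.38 with shDnmt3L1, 9.07 and 8.98 with shDnmt3L2, 9.91 and 9.80 with shGFP and 8.25 and 8.23 with shDnmt3L3. All 3 hairpin groups were below the control and shDnmt3L1 was lowest, with a difference from shDnmt3L2 of -1.46 ± 0.12. Tfcp2l1, a transcription factor that mediates LIF-driven self-renewal, read 10.28 and 10.34 against 11.07 and 10.94, with a mean of 10.97 for shGFP. Its difference was -0.69 ± 0.08, and both shDnmt3L1 arrays were below all others. Klf4, a zinc finger factor, read 7.92 and 8.17 against 8.69 and 8.80, a difference of -0.70 ± 0.11, and 2 other Klf4 probes gave -0.70 ± 0.09 and -0.79 ± 0.12. Klf5, another factor of this family, had a mean of 10.31 against 10.98, a difference of -0.67 ± 0.07. Esrrb, a nuclear receptor of the naive state, read 12.19 and 12.10 against 12.64 and 12.64, a difference of -0.49 ± 0.08. Prdm14 (-0.48 ± 0.08) and Nr5a2 (-0.36 ± 0.08) completed the calls. The 20 members that did not pass included Zfp42, a marker of naive cells (-0.27 ± 0.09), Klf2 (-0.11 ± 0.09), Dppa5a (-0.05 ± 0.09) and Dppa4 (0.10 ± 0.08). Calls in the list fell to between 4 and 5 when 1 of the 4 arrays was left out, with 4 without shDnmt3L2 replicate 2 and 5 without each of the others, and those that held were Gbx2, Tbx3, Tfcp2l1 and Klf5.

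Some genes of the primed epiblast, the state that follows the naive one, were higher with shDnmt3L1. Of 12 measured, 3 were higher and 0 lower (25%), with a median of 0.14. Otx2, a homeobox factor of the epiblast, read 11.45 and 11.26 with shDnmt3L1, 10.99 and 10.98 with shDnmt3L2, 10.41 and 10.46 with shGFP and 9.19 and 9.05 with shDnmt3L3. Both groups were above the control, shDnmt3L1 the more so, with a difference of 0.37 ± 0.09. Krt18 (0.66 ± 0.10) and Cldn6 (0.51 ± 0.09), a keratin and a tight junction protein of epithelia, were the other calls, and neither Dnmt3b (0.02 ± 0.09) nor Sox4 (0.27 ± 0.11) passed. None of the 3 calls held, and the count was 0 without shDnmt3L1 replicate 1, shDnmt3L1 replicate 2 or shDnmt3L2 replicate 1 and 1 without shDnmt3L2 replicate 2.

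**Figure D2:**
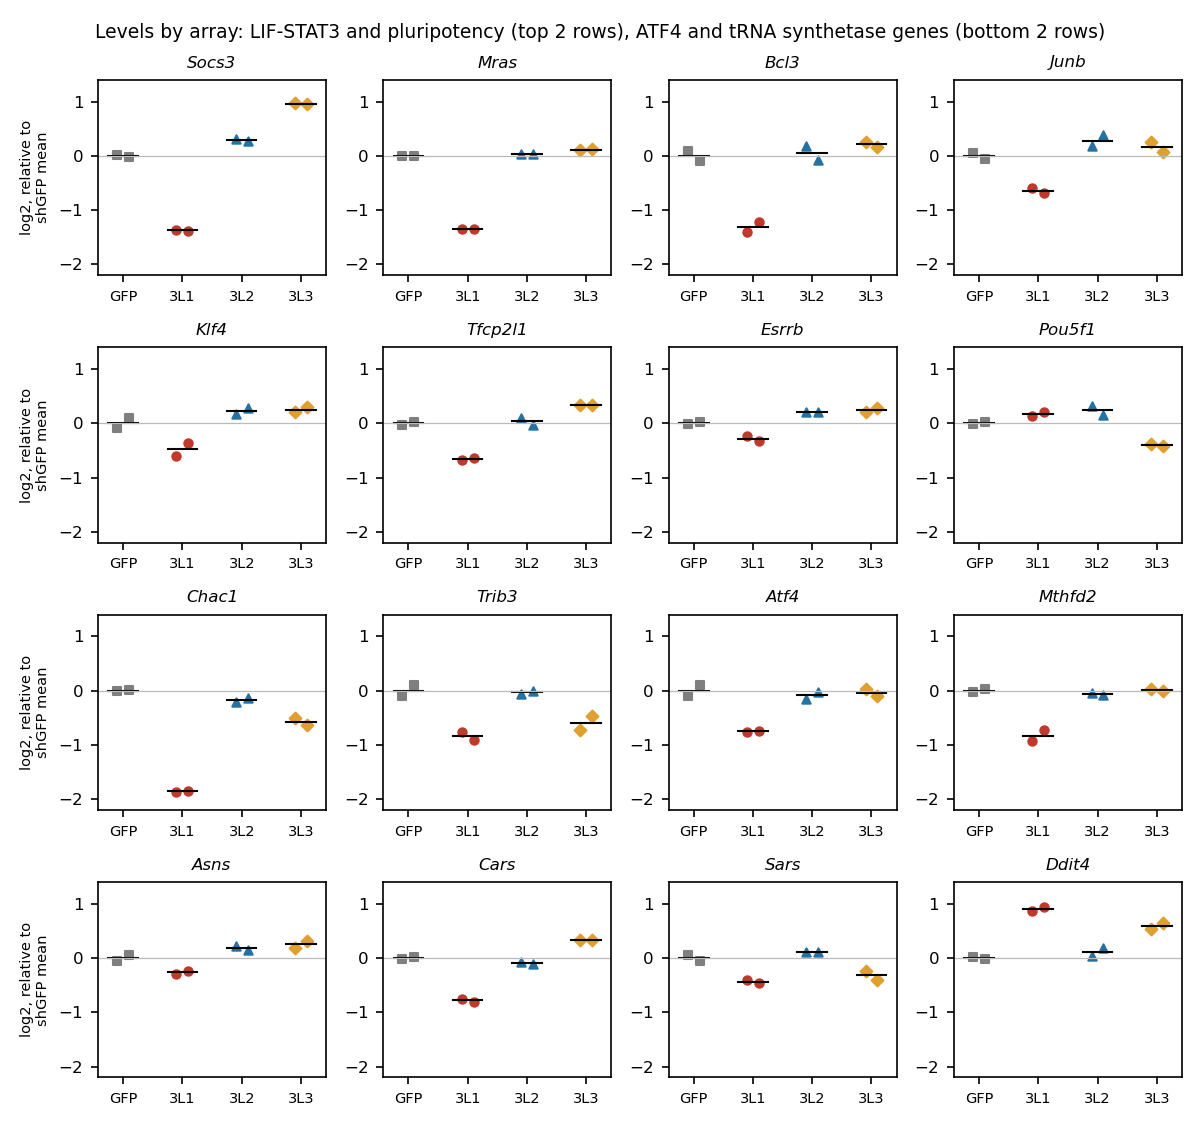
Each panel shows a gene, with the log2 level relative to the mean of the 2 shGFP arrays on the y axis, a point per array and a bar at the group mean, for shGFP (GFP), shDnmt3L1 (3L1), shDnmt3L2 (3L2) and shDnmt3L3 (3L3). In Socs3, Mras, Bcl3, Junb, Tfcp2l1, Atf4 and Mthfd2 the shDnmt3L1 arrays are below the arrays of every other group, whereas Pou5f1 overlaps between shDnmt3L1 and shDnmt3L2.

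The integrated stress response and amino acid supply list was also lower with shDnmt3L1. Of 22 measured members, 11 were lower and 1 higher (54.5%, against 8.05% of all genes), and 20 of the 22 had a negative difference, with a median of -0.35. Chac1, an ATF4 target that breaks down glutathione, read 7.44 and 7.46 with shDnmt3L1, 9.10 and 9.17 with shDnmt3L2, 9.29 and 9.32 with shGFP and 8.80 and 8.66 with shDnmt3L3. The shDnmt3L1 arrays were far below all others, and the difference was -1.68 ± 0.08 (limma, adjusted p = 3.62e-05). Atf4 itself read 10.64 and 10.65 with shDnmt3L1, 11.25 and 11.37 with shDnmt3L2, 11.29 and 11.50 with shGFP and 11.42 and 11.29 with shDnmt3L3. Only shDnmt3L1 was low, with a difference of -0.66 ± 0.10. Its targets Trib3, a pseudokinase that feeds back on ATF4 (-0.80 ± 0.11), Mthfd2, a mitochondrial folate enzyme (-0.77 ± 0.09), Atf5, a related transcription factor (-0.61 ± 0.10), and Nupr1, a small stress-induced chromatin protein (-0.59 ± 0.07), were lower as well. Enzymes and carriers followed: Aldh18a1, of proline synthesis (-0.59 ± 0.08), Slc6a9, a glycine transporter (-0.58 ± 0.09), Asns, asparagine synthetase (-0.45 ± 0.08), Slc3a2, the heavy chain of amino acid exchangers (-0.41 ± 0.08), and Psat1, of serine synthesis (-0.37 ± 0.08).

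Not every arm of this response moved. Ddit4, an inhibitor of the growth kinase mTORC1, read 11.15 and 11.22 with shDnmt3L1 against 10.32 and 10.47 with shDnmt3L2 and was the only member called higher (0.79 ± 0.09). Ddit3, which encodes CHOP (-0.20 ± 0.09), Ppp1r15a, a phosphatase subunit that ends the response (-0.12 ± 0.08), Cebpb (-0.16 ± 0.08), Phgdh, of serine synthesis, and Slc7a3, a cationic amino acid transporter (-0.32 ± 0.09), did not pass. Ddit3 read 6.95 and 7.06 with shDnmt3L1 and 7.20 and 7.21 with shDnmt3L2, against 9.38 and 9.21 with shDnmt3L3. The shDnmt3L1 and shDnmt3L2 arrays thus lay together at the low end of the series. Calls in the stress list numbered 5 without either shDnmt3L1 array, 9 without shDnmt3L2 replicate 1 and 6 without shDnmt3L2 replicate 2, and Chac1, Ddit4, Mthfd2 and Nupr1 held. The Atf4 call was lost without shDnmt3L1 replicate 1, shDnmt3L1 replicate 2 or shDnmt3L2 replicate 2, at values between -0.72 and -0.60 and adjusted p up to 0.0588.

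The promoters of Chac1, Asns and Nupr1 are shown because these 3 called members hold a match to TGATGNAA, the composite element at which ATF4 and C/EBP factors bind, within the 250 bases before the start. Vldlr, which was not called, also holds one there, 200 bases before 1 of its annotated starts. All are from RefSeq's GRCm38.p6 annotation, written 5′ to 3′ on the strand of the gene, with the match in capitals, which reads as its reverse complement in Chac1 and Nupr1. They are chr2:119350992-119351241 on the plus strand for Chac1, chr6:7693210-7693459 on the minus strand for Asns and chr7:126625471-126625720 on the minus strand for Nupr1. The matches begin 193, 23 and 110 bases before the start in that order.

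Chac1: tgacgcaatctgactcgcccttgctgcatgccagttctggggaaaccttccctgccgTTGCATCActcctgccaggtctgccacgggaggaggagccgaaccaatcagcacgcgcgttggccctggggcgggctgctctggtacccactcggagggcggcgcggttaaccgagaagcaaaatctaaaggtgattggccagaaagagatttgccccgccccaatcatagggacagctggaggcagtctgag

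Asns: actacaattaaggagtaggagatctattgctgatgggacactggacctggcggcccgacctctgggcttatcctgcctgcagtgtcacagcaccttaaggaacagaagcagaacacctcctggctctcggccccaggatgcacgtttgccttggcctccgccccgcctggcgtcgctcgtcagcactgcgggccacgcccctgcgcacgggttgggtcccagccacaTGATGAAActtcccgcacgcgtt

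Nupr1: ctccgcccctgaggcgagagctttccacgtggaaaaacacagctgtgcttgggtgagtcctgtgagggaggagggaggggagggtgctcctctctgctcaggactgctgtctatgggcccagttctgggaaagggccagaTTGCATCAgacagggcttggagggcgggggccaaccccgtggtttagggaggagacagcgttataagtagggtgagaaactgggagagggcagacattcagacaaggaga

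Searched on both strands of the 300-base windows, TGATGNAA occurred in 2.24% of the windows of tested genes, in 5 of 25 windows of the stress list (Asns, Chac1, Nupr1, Trib3 and Vldlr) and in 5 of 11 windows of the tRNA synthetase list (Aars, Gars, Iars, Tars and Yars). Of the stress genes with a match, Asns, Chac1, Nupr1 and Trib3 were called lower and Vldlr, a lipoprotein receptor, was not called (0.05 ± 0.09). Of the 5 synthetases with a match 0 were called with limma, with differences from -0.38 for Aars to -0.25 for Tars, and Yars was not detected on any array of either hairpin. Genes such as Mthfd2 and Atf4 were lower without a match in this window.

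Aminoacyl-tRNA synthetases, the enzymes that load amino acids onto transfer RNA, lay on the lower side with shDnmt3L1. All 18 members measured had a negative difference, though Yars was below detection with both hairpins, against 5370 of all 10930 genes, with a median of -0.31, while 5 were called (27.8%) and 0 were called higher. Cars, the cysteine enzyme, read 7.36 and 7.32 with shDnmt3L1, 8.05 and 8.02 with shDnmt3L2, 8.10 and 8.14 with shGFP and 8.45 and 8.46 with shDnmt3L3. The shDnmt3L1 arrays were the lowest, and the difference was -0.69 ± 0.07. Another Cars probe gave -0.31 ± 0.13 and did not pass. Sars, the serine enzyme, read 8.81 and 8.76 against 9.33 and 9.33 (-0.55 ± 0.08). Mars1 (-0.47 ± 0.09), Wars (-0.42 ± 0.09) and Nars (-0.40 ± 0.08), which load methionine, tryptophan and asparagine, were also called. Gars (-0.27 ± 0.07) and Lars (-0.26 ± 0.07) did not pass, nor did Eprs (-0.09 ± 0.08) and Kars (-0.12 ± 0.09). Calls in the family numbered 1 without either shDnmt3L1 array or without shDnmt3L2 replicate 2 and 2 without shDnmt3L2 replicate 1, and only Cars held. Other processing moved the count the other way, to 10 with detection on all 4 arrays required, 12 with an offset of 50 and 13 without background correction or with an intensity trend. The list median stayed between -0.34 and -0.24 across the 18 alternatives of the closing section.

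The unfolded protein response, which shares part of its signalling with the integrated stress response, gave 1 call in each direction. The 2 calls were among 18 measured members (11.1%, against 8.05% of all genes), with a median of 0.06. Herpud1, a component of protein disposal at the endoplasmic reticulum, read 8.47 and 8.44 with shDnmt3L1 and 9.15 and 9.12 with shDnmt3L2 (-0.68 ± 0.08), and this call held. Pdia3, a disulfide isomerase, was higher (0.38 ± 0.08), and Hsp90b1 (0.13 ± 0.07) and Xbp1 (0.15 ± 0.08) did not pass.

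**Figure D3:**
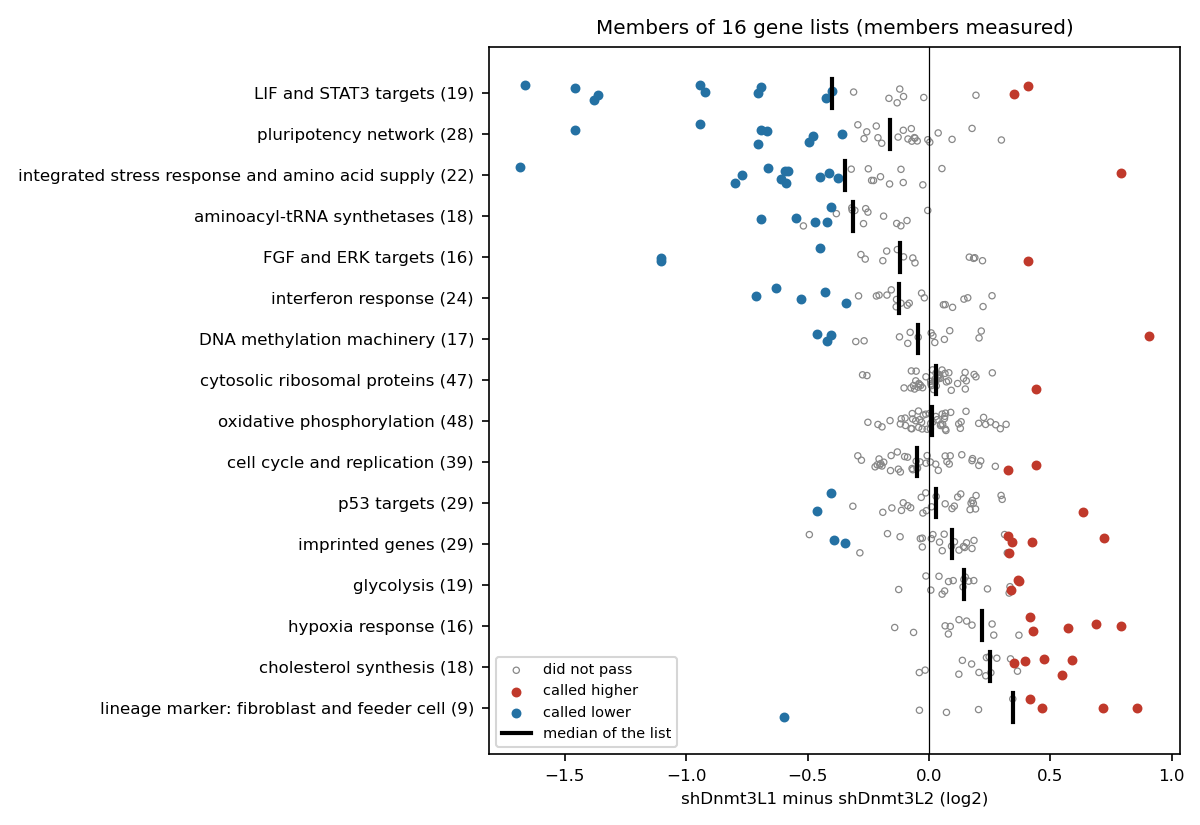
Each point is a measured member of 1 of 16 gene lists, placed by its log2 difference shDnmt3L1 minus shDnmt3L2, filled where called and open where not, with a bar at the list's median. The number of measured members stands beside each name, and the points are spread vertically only to keep them apart. Medians run from -0.40 for LIF and STAT3 targets to 0.35 for fibroblast and feeder cell markers, while ribosomal and oxidative phosphorylation genes centre near 0.

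The genes with the largest differences lower with shDnmt3L1 reached beyond these lists. Spink1, a secreted trypsin inhibitor, had the largest of all. It read 7.41 and 7.56 with shDnmt3L1, 9.48 and 9.56 with shDnmt3L2, 10.40 and 10.48 with shGFP and 7.73 and 7.81 with shDnmt3L3. The shDnmt3L1 and shDnmt3L3 arrays were low together, and the difference between shDnmt3L1 and shDnmt3L2 was -2.04 ± 0.09 (limma, adjusted p = 2.49e-05). Khdc3, a maternal factor that protects genome integrity in early embryos and stem cells, read 6.82 and 6.78 with shDnmt3L1, 8.21 and 8.12 with shDnmt3L2, 9.10 and 9.10 with shGFP and 8.88 and 8.90 with shDnmt3L3 (-1.37 ± 0.07). En1, a homeobox gene, read 5.90 and 5.85 against 7.22 and 7.18 (-1.33 ± 0.08), with shDnmt3L3 lower still at 4.88 and 4.99. Msc, a helix-loop-helix repressor, read 5.69 and 5.53 against 6.85 and 6.82 (-1.22 ± 0.08), and all hairpin groups were below shGFP at 8.30 and 8.36.

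Signal transducers and their feedback inhibitors were among the rest of these 14 genes. Gna14, a G protein alpha subunit of the Gq class, read 5.10 and 5.09 with shDnmt3L1 against 6.28 and 6.21 with shDnmt3L2 (-1.15 ± 0.07). Gnat1, the G protein alpha subunit of rod cells, went the other way in the series. It was detected on both shDnmt3L2 arrays, at 6.02 and 5.97, on neither array of shDnmt3L1 or shGFP, and on 1 of 2 with shDnmt3L3, and was at least 2.31-fold lower with shDnmt3L1 than with shDnmt3L2. Trps1, a repressor of the GATA family, differed by -1.13 ± 0.07, but 2 other detected probes of it gave -0.21 ± 0.11 and -0.13 ± 0.12 and did not pass.

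Etv4 and Spry4 belong to the FGF and ERK targets, of which 3 were lower and 1 higher among 16 measured (25%), with a median of -0.12. Etv4, an ETS transcription factor, read 6.18 and 6.17 with shDnmt3L1, 7.17 and 7.38 with shDnmt3L2, 8.17 and 8.19 with shGFP and 8.32 and 7.99 with shDnmt3L3 (-1.10 ± 0.12). Spry4, which restrains receptor tyrosine kinases, read 5.59 and 5.87, 6.86 and 6.81, 7.61 and 7.85, and 6.96 and 6.69 in the same order of groups (-1.10 ± 0.13). In both genes shDnmt3L1 was the lowest group and shDnmt3L2 was between it and the control. Dusp6, a phosphatase of ERK, was lower (-0.45 ± 0.10), while Etv5 (-0.17 ± 0.09), Egr1 (-0.26 ± 0.09) and Ccnd1 (-0.07 ± 0.08) did not pass. Calls in this list numbered 2 without any 1 of the 4 arrays, and Etv4 and Spry4 held. Of 8 Wnt targets measured, Sp5 (-0.91 ± 0.11), which held, and Notum (-0.41 ± 0.09) were lower (25%, against 8.05% of all genes). The median of this list was 0.06, and Axin2 (0.14 ± 0.10) did not pass. At an unadjusted p under 0.05 there were 2 of the 8 (25%, against 26% of all genes).

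Among the genes higher with shDnmt3L1, Pdzk1, a scaffold that anchors membrane transporters, had the largest difference. It read 9.39 and 9.40 with shDnmt3L1, 8.03 and 7.83 with shDnmt3L2, 6.98 and 7.09 with shGFP and 7.58 and 7.59 with shDnmt3L3. All hairpin groups were above the control, and shDnmt3L1 was highest, with a difference of 1.47 ± 0.09 (limma, adjusted p = 0.000127) and 1.53 and 1.25 in 2 other probes. Lypd2, a surface protein of the LY6 type, read 6.62 and 6.60 against 5.53 and 5.37 (1.16 ± 0.09). Slc46a3, a lysosomal membrane transporter, read 7.81 and 7.82 against 6.78 and 6.92 (0.96 ± 0.08). Txnip, an inhibitor of thioredoxin and of glucose uptake, read 11.79 and 11.77 against 11.02 and 10.90, while shDnmt3L3 read 12.96 and 12.98 (0.82 ± 0.08).

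Some of the 14 genes called higher by the most were dim on these arrays. Defb20, a beta-defensin, was detected on both shDnmt3L1 arrays at 5.74 and 5.78 and on neither shDnmt3L2 array, and was at least 1.92-fold higher. Vstm2b read 5.78 and 5.74 against 4.96 and 4.61 and was detected on 1 of 2 arrays with shDnmt3L2 (0.98 ± 0.11), as was 2610528J11Rik (0.86 ± 0.16). The call of 2610528J11Rik was lost without shDnmt3L1 replicate 1, shDnmt3L1 replicate 2 or shDnmt3L2 replicate 2, at an adjusted p up to 0.0863 and differences between 0.65 and 1.07. Pxylp1, a phosphatase of glycosaminoglycan synthesis (0.92 ± 0.08), Copz2, a subunit of the COPI vesicle coat (0.86 ± 0.08), Thy1 (0.86 ± 0.08), Tmtc4, a mannosyltransferase (0.85 ± 0.08), Tmem130 (0.82 ± 0.09) and Rgs17, which turns off G protein signals (0.82 ± 0.08), completed the group together with Gadd45b.

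**Figure D4:**
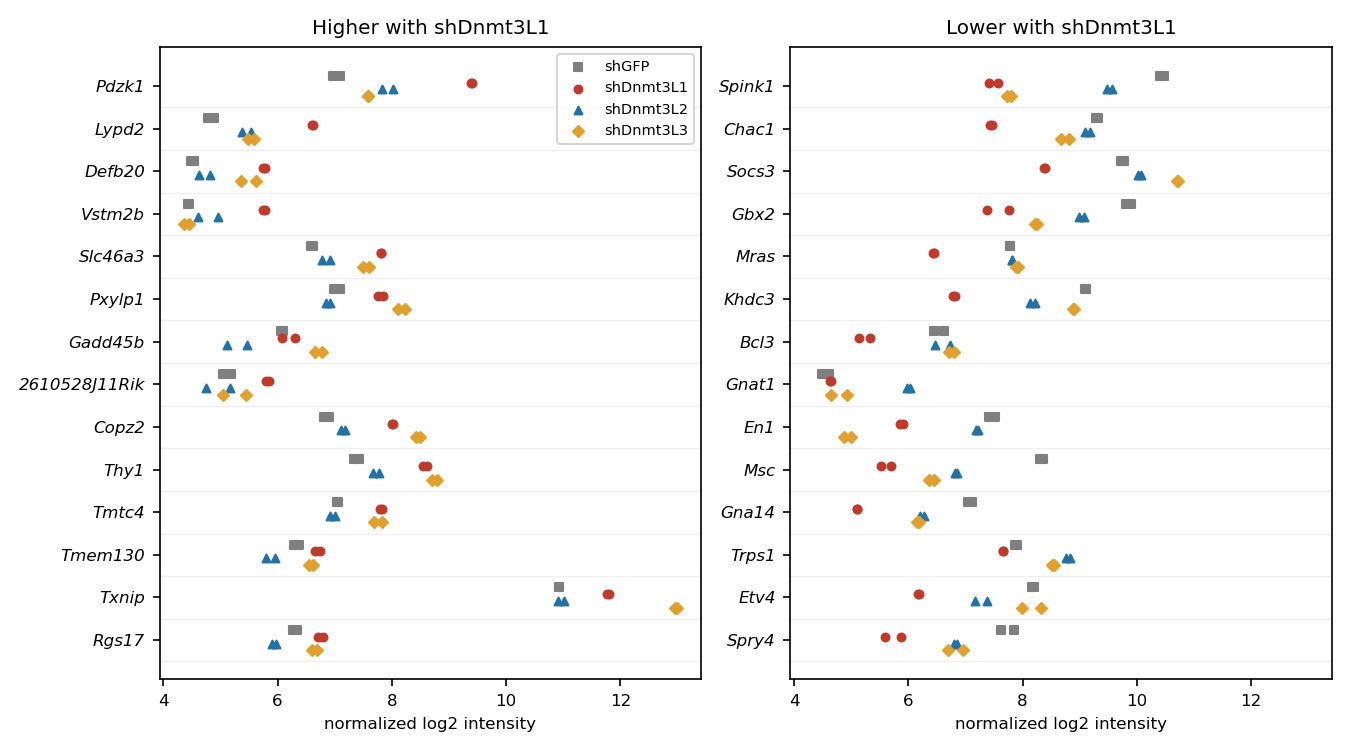
Normalized log2 intensity (x axis) on each of the 8 arrays for the 14 genes with the largest differences higher (left) and lower (right) with shDnmt3L1, ordered by size, with a symbol for each group and 2 points per group. The red and blue points do not overlap in any row, which the choice of genes requires, and the position of the shDnmt3L3 points varies from gene to gene: their mean is nearer to shDnmt3L2 in 4 of the 14 rows on the left and in 10 of the 14 on the right.

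Among genes that write, read or remove DNA methylation, 1 was higher and 3 lower of 17 measured (23.5%, against 8.05% of all genes), with a median of -0.04. At an unadjusted p under 0.05 there were 7 of the 17 (41.2%, against 26% of all genes). Gadd45b, a stress-induced protein implicated in removal of methylation, read 6.30 and 6.08 with shDnmt3L1, 5.46 and 5.11 with shDnmt3L2, 6.05 and 6.09 with shGFP and 6.65 and 6.79 with shDnmt3L3. Here the shDnmt3L2 arrays were the lowest of the series, and the difference was 0.91 ± 0.13. Tet1, which oxidises methylcytosine (-0.46 ± 0.10), and Trim28, a corepressor that keeps methylation at imprints and retroelements (-0.42 ± 0.07), were lower. Gadd45a was lower too (-0.40 ± 0.09), but another Gadd45a probe gave -0.21 ± 0.10 and did not pass. The methyltransferase Dnmt3b read 12.66 and 12.79 against 12.64 and 12.77, and the groups overlapped (0.02 ± 0.09). Uhrf1, which directs maintenance methylation, did not pass (0.06 ± 0.09). The count of 4 was 0 without shDnmt3L1 replicate 1 and 1 without each of the other 3 arrays, none of the 4 calls held, and Gadd45b without shDnmt3L1 replicate 1 had an adjusted p of 0.053.

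Imprinted genes are expressed from 1 parental copy under the control of DNA methylation. They gave 5 calls higher and 2 lower of 29 measured (24.1%, against 8.05% of all genes), with a median of 0.09. Igf2, a fetal growth factor, read 8.99 and 8.96 with shDnmt3L1, 8.29 and 8.21 with shDnmt3L2, 7.16 and 7.26 with shGFP and 8.35 and 8.32 with shDnmt3L3. All hairpin groups were above the control and shDnmt3L1 was highest (0.72 ± 0.08). Cdkn1c, a cyclin-dependent kinase inhibitor, was higher (0.42 ± 0.08), and Grb10, an adaptor that restrains growth factor receptors (-0.35 ± 0.08), and the noncoding RNA Meg3 (-0.39 ± 0.09, detected on 1 of 2 shDnmt3L1 arrays) were lower. Another Meg3 probe gave 0.22 ± 0.21 and another Grb10 probe -0.18 ± 0.10, and neither passed. The bright members Cd81 (0.12 ± 0.08) and Impact (0.04 ± 0.08) did not pass. The count was 1 without any 1 of the 4 arrays, and only Igf2 held. Primordial germ cell genes gave 0 higher and 2 lower of 17 (11.8%), the receptor Kit (-0.50 ± 0.08) and Prdm14, and neither held. At an unadjusted p under 0.05 there were 5 of the 17 (29.4%, against 26% of all genes). Of 16 germline genes that methylation silences elsewhere, 1 was higher (6.25%), the cohesin subunit Smc1b (0.38 ± 0.08), which did not hold. A positive difference was found in 14 of the 16, against 5560 of all 10930 genes, with a median of 0.19.

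In cholesterol synthesis 5 of 18 were higher and 0 lower (27.8%), 16 had a positive difference, and the median was 0.25. Msmo1, a sterol oxidase, read 10.23 and 10.22 with shDnmt3L1, 9.71 and 9.79 with shDnmt3L2, 10.48 and 10.50 with shGFP and 10.94 and 11.02 with shDnmt3L3. The shDnmt3L2 arrays were thus the lowest, and the difference was 0.48 ± 0.08. Dhcr7 (0.59 ± 0.11), Sc5d (0.55 ± 0.13), Cyp51 (0.40 ± 0.09) and Hsd17b7 (0.35 ± 0.07) were also called, and Sqle (0.36 ± 0.10) and Fdps (0.25 ± 0.08) did not pass. The count was 1, 0, 0 and 2 without shDnmt3L1 replicate 1, shDnmt3L1 replicate 2, shDnmt3L2 replicate 1 and shDnmt3L2 replicate 2, and none of the calls held. In fatty acid synthesis the desaturases Scd1 (0.49 ± 0.08) and Fads1 (0.33 ± 0.08) were higher among 12 measured (16.7%, against 8.05% of all genes), and neither held. In this list 0 were called lower and the median was 0.12, and Acly (0.18 ± 0.08) and Elovl5 (-0.02 ± 0.08) did not pass.

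Of 16 genes of the hypoxia response, 5 were higher and 0 lower (31.2%), with a median of 0.22. Egln3, a prolyl hydroxylase that marks HIF for degradation, read 8.81 and 8.83 with shDnmt3L1, 8.21 and 8.06 with shDnmt3L2, 7.99 and 8.15 with shGFP and 7.77 and 7.93 with shDnmt3L3. Only shDnmt3L1 stood above the other groups, with a difference of 0.69 ± 0.10. Another Egln3 probe gave 0.31 ± 0.09 and did not pass. Ddit4, which is also on the stress list, P4ha1, a collagen prolyl hydroxylase (0.57 ± 0.13), Ankrd37 (0.43 ± 0.10) and Ndrg1 (0.42 ± 0.09) were the other calls. Vegfa (-0.14), Kdm3a (-0.06 ± 0.09) and Bnip3l (0.09 ± 0.08) did not pass. The count was 2, 1, 3 and 1 without shDnmt3L1 replicate 1, shDnmt3L1 replicate 2, shDnmt3L2 replicate 1 and shDnmt3L2 replicate 2, and Ddit4 held. In glycolysis Pfkm (0.37 ± 0.08), Eno2 (0.37 ± 0.09) and Aldoc (0.34 ± 0.08) were higher among 19 (15.8%), none of which held, and Gapdh (-0.01 ± 0.07) and Ldha (0.06 ± 0.10) did not pass. Of 23 lysosomal genes, 4 were higher and 0 lower (17.4%), among them the proteases Ctsa (0.50 ± 0.08) and Ctsh (0.56 ± 0.13), and none held. Another Ctsa probe gave -0.21 ± 0.09 and another Ctsh probe 0.08 ± 0.08, and neither passed.

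Markers of fibroblasts and feeder cells were included because such cells can be carried into stem cell cultures. Of 9 measured, 4 were higher and 1 lower (55.6%, against 8.05% of all genes), with a median of 0.35. Across the 18 alternatives of the closing section this median ran from 0.05 to 0.49. Mmp2, a matrix protease, read 9.90 and 9.95 with shDnmt3L1, 9.17 and 9.24 with shDnmt3L2, 7.94 and 8.12 with shGFP and 9.30 and 9.32 with shDnmt3L3 (0.72 ± 0.08). Thy1, a surface glycoprotein, read 8.55 and 8.62 against 7.68 and 7.78, with 7.43 and 7.34 with shGFP and 8.79 and 8.71 with shDnmt3L3. Acta2, smooth muscle actin (0.47 ± 0.09), and Col5a1 (0.42 ± 0.08) were also higher. Another 3 Acta2 probes gave 0.36 ± 0.10, 0.42 ± 0.14 and 0.02 ± 0.14, and none of them passed. Vim, an intermediate filament of mesenchymal cells, went the other way, at 8.14 and 8.04 against 8.67 and 8.70 (-0.60 ± 0.10). Another 8 markers of the list, among them the fibroblast collagens Col1a1, Col1a2 and Col3a1, did not pass the detection filter on these arrays. The summed linear level of the 9 measured markers was 3197 and 3326 with shDnmt3L1, 2670 and 2651 with shDnmt3L2, 1691 and 1737 with shGFP and 2804 and 2794 with shDnmt3L3. Its part in the other differences was not tested. Calls numbered 2 without shDnmt3L1 replicate 1, shDnmt3L1 replicate 2 or shDnmt3L2 replicate 1 and 4 without shDnmt3L2 replicate 2, and Thy1 and Mmp2 held.

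Markers of other lineages were summed in the same way. The summed level of 9 mesoderm markers was 514 and 541 with shDnmt3L1 against 567 and 515 with shDnmt3L2, that of 6 neuroectoderm markers 534 and 534 against 531 and 515, and that of 11 trophectoderm markers 2830 and 2709 against 2725 and 2745. The groups overlapped for mesoderm and trophectoderm, and the neuroectoderm sums lay close together. Lhx1, of mesoderm, was higher (0.51 ± 0.08, detected on 1 of 2 shDnmt3L2 arrays), as were the epithelial keratins Krt8 (0.64 ± 0.10) and Krt18, and none of the 3 held. Of 6 neuroectoderm markers and 4 markers of blood and endothelium, 0 were called with limma, and 0 and 1 had an unadjusted p under 0.05. The same count was 7 of 11 (63.6%) for trophectoderm and 4 of 9 (44.4%) for mesoderm, against 26% of all genes. In the basement membrane and extraembryonic endoderm list, Lama1, a laminin chain, read 6.78 and 6.91 with shDnmt3L1, 7.80 and 7.79 with shDnmt3L2, 6.97 and 6.98 with shGFP and 8.12 and 8.08 with shDnmt3L3. The difference was -0.95 ± 0.08 and held. Lama1 was the 1 member called lower of 19 measured, and 2 members, Krt8 and Krt18, were called higher (15.8% in all, against 8.05% of all genes). The median of this list was 0.08, and Nid2 (0.10 ± 0.07) and Lamc1 (-0.12 ± 0.08) did not pass. Among 24 integrins, cadherins and claudins, 3 were higher (12.5%, against 8.05% of all genes) and 0 lower. They were Cldn5 (0.78 ± 0.09, which held), Cdh3 (0.46 ± 0.09) and Cldn6. Another 2 Cdh3 probes gave 0.30 ± 0.11 and 0.07 ± 0.20 and did not pass, nor did Cdh1, E-cadherin (-0.13 ± 0.08).

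The cytoskeleton list split. Of 26 genes of actin and its transcription factor SRF, 3 were lower and 3 higher (23.1%), with a median of 0.07. S100a6, a calcium-binding protein, had means of 7.04 with shDnmt3L1 and 7.86 with shDnmt3L2 (-0.82 ± 0.10), while shGFP read 8.88 and 8.91 and shDnmt3L3 read 8.28 and 8.55, so shDnmt3L1 was the lowest group. Lmna, a nuclear lamin (-0.61 ± 0.12), and Vim were the other lower genes. Tpm2, a tropomyosin (0.55 ± 0.10), Acta2 and Csrp1, an actin-binding LIM protein (0.43 ± 0.08), were higher. Actb did not pass (0.06 ± 0.08). The count was 1 without either shDnmt3L1 array or shDnmt3L2 replicate 1 and 4 without shDnmt3L2 replicate 2, and S100a6 held.

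Interferon-response genes, which can react to introduced RNA, were on the lower side with shDnmt3L1. Of 24 measured, 5 were lower and 0 higher (20.8%, against 8.05% of all genes), with a median of -0.12. At an unadjusted p under 0.05 there were 7 of the 24 (29.2%, against 26% of all genes). Parp14, an ADP-ribosyltransferase, read 5.82 and 5.81 with shDnmt3L1, 6.54 and 6.51 with shDnmt3L2, 7.41 and 7.27 with shGFP and 6.32 and 6.07 with shDnmt3L3 (-0.71 ± 0.10). All hairpins against Dnmt3l were below shGFP, and shDnmt3L1 was lowest. Gbp2, an interferon-induced GTPase (-0.63 ± 0.15), its paralog Gbp2b (-0.34), Dtx3l, a ubiquitin ligase (-0.53 ± 0.09, with -0.10 ± 0.08 in another probe), and Ddx58, the RNA sensor RIG-I (-0.43 ± 0.08), were also lower. Gbp2 and Gbp2b are close paralogs, and probes may not tell them apart. The count was 2, 0, 1 and 1 without shDnmt3L1 replicate 1, shDnmt3L1 replicate 2, shDnmt3L2 replicate 1 and shDnmt3L2 replicate 2, and none held. Of 16 genes that process small RNAs and hairpins, 0 were called with limma, and the median was -0.08. In this list 5 (31.2%) had an unadjusted p under 0.05, against 26% of all genes. Drosha read 10.18 and 10.24 against 10.27 and 10.20, and the groups overlapped (-0.03 ± 0.08).

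Of 48 oxidative phosphorylation genes, 0 were called with limma and 7 (14.6%) had an unadjusted p under 0.05, against 26% of all genes, and the median was 0.01. Of 47 cytosolic ribosomal protein genes, 1 was called (2.13%), Rpl22 (0.44 ± 0.08), which did not hold, with a median of 0.03. Of 39 genes of the cell cycle and replication, 2 were called (5.13%), Rb1 (0.44 ± 0.09) and Cdkn1b, both higher, neither of which held. Cdkn1b was not detected with shDnmt3L2 and was at least 1.05-fold higher. At an unadjusted p under 0.05 there were 13 of the 39 (33.3%, against 26% of all genes). Calls in this list numbered 11 without background correction and 9 with an intensity trend in the prior variance. Calls over all genes rose as well under these settings, from 880 to 1832 and 1706. Of 12 housekeeping genes 0 were called with limma and 3 had an unadjusted p under 0.05 (25%, against 26% of all genes). Of 13 genes of BMP signalling 0 were called and 1 (7.69%) had an unadjusted p under 0.05. Of 5 genes of the 2-cell-like state 0 were called and 1 (20%) had an unadjusted p under 0.05. Among 29 p53 targets, 1 was called higher and 2 lower (10.3%, against 8.05% of all genes), with a median of 0.03. Sesn1 was higher and held (0.63 ± 0.07, with 0.42 and 0.07 in 2 other probes that did not pass). Plk3 (-0.46 ± 0.11) and Gadd45a were lower. In this list 7 (24.1%) had an unadjusted p under 0.05, against 26% of all genes. In the Notch list Hey1 (0.67 ± 0.09), Dtx1 (0.51 ± 0.11) and Notch3 (0.32 ± 0.08) were higher of 9 measured (33.3%) with 0 lower, none held, and Hes1 did not pass (-0.14 ± 0.08).

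In 18 genes (0.165% of those tested) the 2 hairpins were called against shGFP in opposite directions and differed from each other. With shDnmt3L1, 7 of them were higher and 11 lower than with shDnmt3L2. Both comparisons use the same 2 shGFP arrays. Tbx3, a T-box factor of the naive state, read 8.16 and 8.08 with shDnmt3L1, 9.11 and 9.01 with shDnmt3L2, and the shGFP arrays lay between the hairpins at 8.45 and 8.55. Fzd5, a Wnt receptor, read 9.58 and 9.52, 10.26 and 10.33, and 9.89 and 9.72 in the same order. Slc40a1, the iron exporter ferroportin, was the reverse, at 7.39 and 7.30, 6.60 and 6.48, and 7.04 and 7.12. Etv1, an ETS factor, read 6.75 and 6.94, 7.68 and 7.58, and 7.42 and 7.25. The remaining genes were Socs3, Trps1, Tmem130, Rgs17, Pros1, Setd1b, Acsbg3, Zdbf2, Herpud1, Hey1, Aurkc, Tenm4, Sesn1 and Kif3c.

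**Figure D5:**
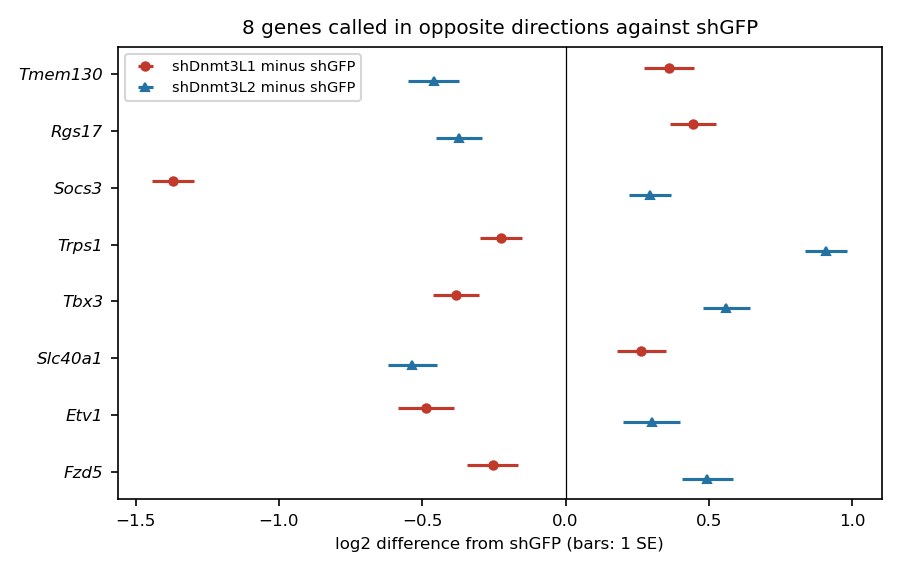
Log2 difference from shGFP (x axis) for the 8 genes with the largest difference between the hairpins among the 18 called in opposite directions, for shDnmt3L1 (red circles) and shDnmt3L2 (blue triangles), with bars of 1 SE and 2 arrays per group. The red and blue points lie on opposite sides of 0 in every row because the genes were chosen that way, and Socs3 shows the widest gap, from -1.37 to 0.30.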

How the data were processed

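Total RNA of 8 samples was measured on Illumina BeadChip arrays, 1 Cy3 intensity per probe and array. The non-normalized intensity table deposited by the authors is linear and not background-subtracted, and GenomeStudio 2011.1 is named in the submitters' processing notes. The p-value column deposited beside each intensity, unnamed per the file headers, was read as its detection p-value. The authors' deposited processed intensities, of unstated making, served as an alternative only.

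Background correction, quantile normalization and log2 with an offset of 16 used the neqc function of limma 3.58.1 under R 4.3.3. Offset and correction change dim genes most. Of 45281 probes, 17301 were kept, which 2 or more arrays detected at a p under 0.05 and for which the platform annotation gives 1 gene, symbols were updated through RefSeq GRCm38.p6, and the brightest probe represented each of 10930 genes. A limma model with 4 group means over 8 arrays (4 residual and 4.64 prior degrees of freedom) gave the two-sided contrast shDnmt3L1 minus shDnmt3L2, with Benjamini-Hochberg adjustment over all genes. The script was tested on simulated data. Where no array of a group detected a gene, a fold is given only as a lower bound. It sets the mean of the brighter group against a floor, which on each array is the dimmest detected probe or, if brighter, the probe itself. Precision is limited by 2 arrays per group.

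The text names Dnmt3l, Rhox5, Rhox6 and Rhox9, the 14 genes highest and 14 lowest by difference among called genes detected on both arrays of the brighter group and with groups that do not overlap, up to 4 called and 2 uncalled members of each of 45 gene lists, and 8 genes called oppositely against shGFP. Further list members were named after their values were seen. The groups compared and the lists were chosen with earlier results of these data known. Same-numbered arrays did not deviate together (correlations from -0.0105 to 0.0373 over 10930 genes), so the numbers were not used as pairs. The sources used here do not give chip positions or RNA quality.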

Additional observations from a re-analysis of the deposited data

Results flagged for a closer look

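The following 8 genes had called effects of opposite sign against shGFP with the 2 hairpins, and the difference between the hairpins was itself called by limma in each. The control arrays are shared by both effects. Socs3 differed between the hairpins by -1.66 (-1.37 with shDnmt3L1 and 0.30 with shDnmt3L2, both against shGFP). Trps1 differed by -1.13 (-0.22 and 0.91 in that order), a value that 2 other Trps1 probes did not show. Tbx3 differed by -0.94 (-0.38 and 0.56), and 2 other probes gave -1.17 and -0.99 while the third gave -0.25. Tmem130 differed by 0.82 (0.36 and -0.46) and Rgs17 by 0.82 (0.45 and -0.37), and another Rgs17 probe gave 0.54 ± 0.20 and did not pass. Slc40a1 differed by 0.80 (0.26 and -0.53), Etv1 by -0.79 (-0.49 and 0.30) and Fzd5 by -0.75 (-0.25 and 0.50). Other Etv1 probes gave -0.56 ± 0.16, which did not pass, and -0.54 ± 0.10, which passed. Other Fzd5 probes gave -0.37 ± 0.12, which did not pass, and -0.57 ± 0.11, which passed. The cause of these differences was not tested.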

How the results depend on the processing

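Gene counts and the differences of named genes were recomputed under 18 alternatives, 10 of the processing or model and 8 that leave out 1 array. No called difference among these named genes changed sign. Calls between the hairpins, 880 as reported, numbered 572 with only the 4 arrays of the 2 hairpins, 1664 with an offset of 50, 1832 without background correction and 1706 with an intensity trend in the prior variance. Calls of at least 1.5-fold, 171 as reported, numbered 61 with the offset of 50 and 35 without background correction. With median scaling 67.5% of 796 calls were higher, against 59.4% as reported. The Dnmt3l difference was called at -0.30 when detection on all 4 arrays was required, at -0.29 with the offset of 50, at -0.29 without background correction and at -0.30 with the intensity trend. Leaving out 1 array gave 143 to 776 calls, 130 to 171 of at least 1.5-fold and a Dnmt3l difference from -0.35 to -0.25. The fit with the replicate number as a block gave 705 calls, 171 of them at least 1.5-fold, and a Dnmt3l difference of -0.30. Of the 28 genes with the largest differences, those measured stayed called under the 10 processing alternatives, with 4 not measured where detection on all 4 arrays was required. Fewer arrays in a fit leave fewer residual degrees of freedom. The cause of the other changes was not tested. Of 375 called genes with another detected probe, the brightest other probe had the same sign in 320 (85.3%).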

Other observations

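Called genes were spread over the genome. By chromosome, the share of tested genes that were called ran from 5.32% on X to 9.72% on 12, leaving out Y with 3 genes and 0 calls (limma), and the median difference ran from -0.01 to 0.03. In the metallothionein and metal ion list, 2 were higher and 1 lower of 12 measured (25%, against 8.05% of all genes), with a median of 0.11. Slc40a1 was higher with shDnmt3L1, and Slc11a2, an iron importer, was called lower (-0.34 ± 0.08), but 2 other Slc11a2 probes gave 0.39 ± 0.13 and -0.29 ± 0.12 and did not pass. Mt1, a metallothionein, was higher at 14.30 and 14.40 against 14.01 and 13.97 (0.36 ± 0.08). In a separate list of NRF2 and glutathione genes, 1 was higher and 1 lower of 22 measured (9.09%, against 8.05% of all genes). The median of that list was 0.09. Mgst1 was the higher one (0.40 ± 0.09). Gpx1, a glutathione peroxidase, was the lower one, at 11.24 and 11.18 against 11.67 and 11.63 (-0.44 ± 0.07). Gpx4 (0.30 ± 0.08) and Prdx1 (-0.03 ± 0.09) did not pass. In the Polycomb list, Eed (-0.50 ± 0.09) and Kdm2b (-0.40 ± 0.09) were called lower and 0 higher among 28 measured, a share of 7.14% against 8.05% of all genes, while Suz12 (0.18 ± 0.08) and Mtf2 (0.15 ± 0.08) did not pass. Another Eed probe gave -0.09 ± 0.13, and 4 other Kdm2b probes ran from -0.26 to 0.09, none of which passed. Of these calls, the one that remained whichever of the 4 arrays was left out was Slc40a1.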
